A study of Mus musculus with 8 samples.

Results

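The mouse mitochondrial chromosome (chrM) appeared in the deposited table as 37 of 52778 rows, taken as every row whose name gives chrM as its chromosome. They were 13 mRNAs, 2 rRNAs and 22 tRNAs, told apart by start and end. All 37 matched a GENCODE M21 gene on GRCm38 by exact start, end and strand. On the plus strand lay 28 of them, and on the minus strand 9, which are mt-Nd6 and 8 tRNAs. The table's own names (ND1, COX1, TrnF and so on) are given here as the mouse symbols mt-Nd1, mt-Co1 and mt-Tf.

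RNA was sequenced from dissected ventricles of mouse embryos at embryonic day 11.5. Of the 8 libraries, 4 came from embryos of the genotype Rps19bp1 fl/fl; Xmlc2-Cre (cKO), in which a myosin light chain promoter drives Cre in cardiomyocytes, so other cells of the ventricle keep the gene. The other 4 came from embryos named only as control, with no statement of which floxed or Cre alleles they carry. Rps19bp1 encodes a small nucleolar protein that binds the ribosomal protein Rps19 and is also known as a regulator of the deacetylase Sirt1. No drug was given, all 8 libraries carry the same batch label, and the genotype field reads C57BL/6 WT for all of them, against the titles. One protocol text names cortical neurons and depletion of ribosomal RNA, another names ventricles and a stranded mRNA kit. The replicates are called biological, without saying whether a library is 1 embryo or a pool.

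Each mitochondrial genome is copied into RNA from both strands as long precursors that run through many genes. Enzymes cut the precursors at the tRNAs, which stand between most of the mRNAs and rRNAs like punctuation marks, so tRNAs, rRNAs and mRNAs of a strand start from a common transcript and then differ in processing and stability. The 13 mRNAs encode subunits of respiratory complexes I, III, IV and V, and the rRNAs and tRNAs build and serve the mitochondrial ribosome that translates them. In the embryonic heart, mitochondria multiply and mature as cardiomyocytes turn to oxidative metabolism.

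The values were TPM, a unit that divides reads by row length and scales each library to 1 fixed total, so the read depth of each library is unknown and no counting interval can be given. Rps19bp1 was at 15.2, 11.8, 13.7 and 19.2 TPM in cKO libraries 1 to 4 and at 40.9, 44.2, 34.7 and 40.0 TPM in control libraries 1 to 4, with no overlap (log2 difference -1.37, SE 0.127, adjusted p = 0.000508 by limma). Differences are cKO minus control in log2(TPM + 1), tested with limma over 15541 rows with a mean of at least 1 TPM, and "called" means a Benjamini-Hochberg adjusted p under 0.05. By that rule 6.4% of all rows were called, 2.16% higher and 4.23% lower, and higher calls made up 33.8% of all calls, against 51.3% after each library was rescaled to its nuclear rows. Summed marker levels of some cells other than cardiomyocytes were higher in every cKO library. The summed level of 7 epicardial markers was 374 ± 37.2 against 289 ± 15.6 TPM (SD, n = 4). That of 8 mesenchymal markers was 876 ± 88.7 against 633 ± 60.2 TPM. That of 8 endocardial and endothelial markers was 816 ± 46.5 against 751 ± 25.5 TPM. None of these sums overlapped, the last only just (778 TPM in the lowest cKO against 775 TPM in the highest control library). Called higher were 4 of the 7 epicardial, 4 of the 8 mesenchymal and none of the 8 endocardial and endothelial markers. Above 0 were 6, 8 and 7 of them. The exceptions were epicardial Sfrp5, lower in every cKO library (log2 difference -0.47, adjusted p = 0.0544 by limma), and endothelial Kdr at -0.05. The sum of 15 cardiomyocyte markers was 58369 ± 1297 against 58887 ± 2277 TPM and overlapped, with Nkx2-5 the called member, lower in cKO (adjusted p = 0.0453, and 0.0744 after rescaling to nuclear rows). Of the 15, 3 were above 0, with a median of -0.05, or -0.02 after that rescaling. Myh6 (-0.18) and Tnni1 (-0.16) were also lower in every cKO library, without a call. Nppa, which counts in the same sum, was higher in every cKO library (5844 ± 1139 against 4276 ± 377 TPM, log2 difference 0.44, adjusted p = 0.0768 by limma). Sums of erythroid and of macrophage markers overlapped. Neuronal markers summed to 2.22 to 2.60 TPM in cKO and 2.57 to 2.88 TPM in control libraries, with Neurod6 at 0 in all 8. The part of these marker levels in the mitochondrial differences was not tested. In bulk tissue a change in the number of cells of a type and a change in RNA per cell cannot be told apart.

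Mitochondrial rows took 13.2%, 13.2%, 16.2% and 14.1% of all TPM in cKO libraries 1 to 4 and 12.1%, 12.2%, 12.0% and 11.4% in control libraries 1 to 4. Every cKO library lay above every control library, and cKO 3 stood highest. The mean share was 14.2% ± 1.39 in cKO and 11.9% ± 0.350 in control (SD, n = 4), a ratio of 1.19, and the difference of 2.24 percentage points became 1.58 without cKO 3. Set against nuclear rows alone, there were 16.6 ± 1.91 mitochondrial TPM per 100 nuclear TPM in cKO and 13.6 ± 0.450 in control. These sums were not tested, since they are sums over members, and a TPM share does not tell RNA molecules per cell.

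In single rows the differences were small and few were called. Of the 37 rows, 31 had a log2 difference above 0, against 44.2% of all rows tested, with a median of 0.22 against -0.02 over all rows. All 37 passed the filter on low values. In 13 of the 37 every cKO library lay above every control library, against 5.33% of all rows, and in none did every cKO library lie below, against 10.3%. Called higher were 4 rows, mt-Nd3, mt-Nd4, mt-Nd4l and mt-Tp, and called lower was none by limma, with 16 rows at an unadjusted p under 0.05, all of them higher. Rescaled to nuclear rows, the same fit called 6 mitochondrial rows, the 4 named and mt-Atp8 and mt-Tg, and none lower, where 2.54% of all rows were called higher and 2.41% lower. All 13 mRNAs had a difference above 0, with a median of 0.26, except under quantile normalization, which gives every library the same set of values: there mt-Co2 turned to -0.10 and mt-Co1, the most abundant row in every library, came out at 0.

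**Figure D1:**
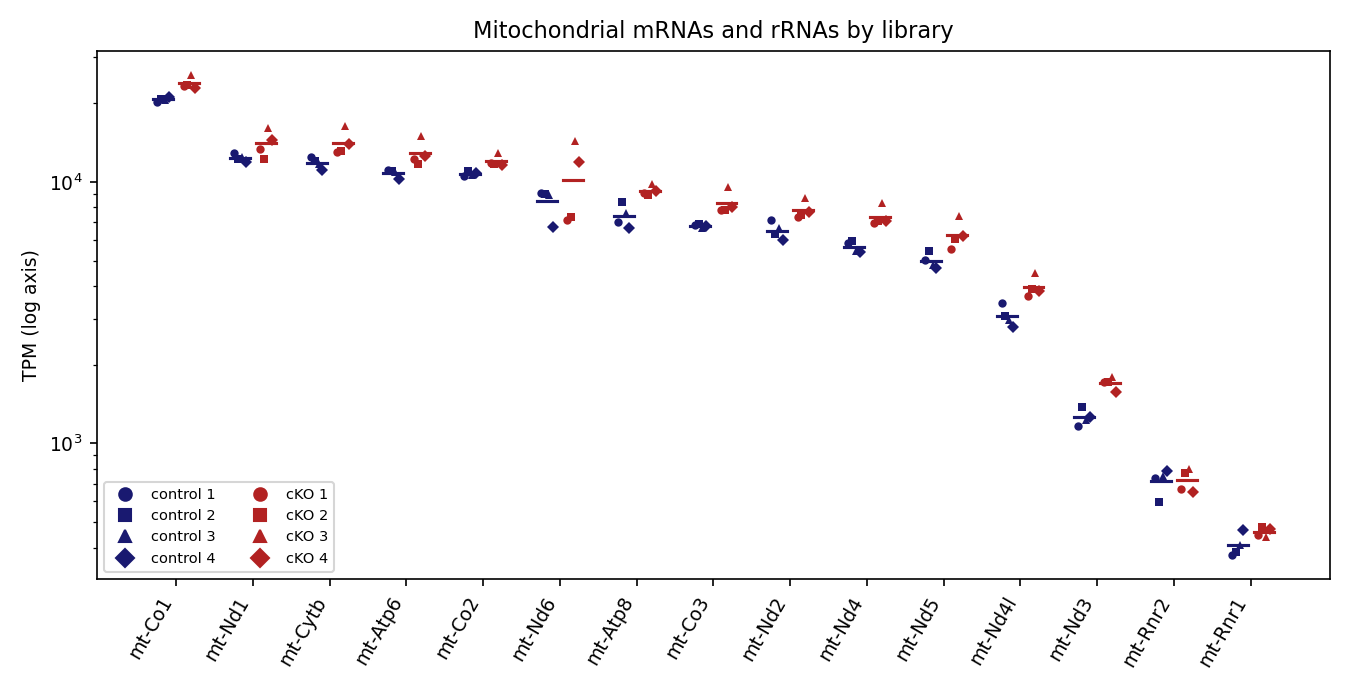
TPM (log axis) of the 13 mitochondrial mRNAs and the 2 rRNAs in each library, control in dark blue and cKO in red, with a bar at each group's mean and a symbol for each replicate number. For 11 of the 13 mRNAs the 4 red points lie above the 4 blue ones, cKO 3 (red triangle) is the highest of the 8 for all 13 mRNAs, and both rRNAs overlap between groups.

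Complex I, the NADH dehydrogenase, has 7 mitochondrially encoded subunits, all of them parts of its membrane arm, and held the 3 called mRNAs. Its 7 mRNAs had a median log2 difference of 0.33. mt-Nd3 (chrM:9459-9806) stood at 1722, 1723, 1799.9 and 1568 TPM in cKO libraries 1 to 4 and 1170.4, 1381, 1225 and 1267 TPM in control libraries 1 to 4. mt-Nd4 (chrM:10167-11544) stood at 6981, 7106, 8271 and 7069 TPM in cKO libraries 1 to 4 and 5826, 5932, 5439.8 and 5403 TPM in control libraries 1 to 4. mt-Nd4l (chrM:9877-10173) stood at 3664, 3887, 4502 and 3834 TPM in cKO libraries 1 to 4 and 3449, 3059, 2964 and 2785 TPM in control libraries 1 to 4. In each of the 3 the lowest cKO library lay above the highest control library. The mean of mt-Nd3 was 1703 ± 97.0 against 1261 ± 89.5 TPM (SD, n = 4), with a log2 difference of 0.43, SE 0.0675, adjusted p = 0.00774 by limma. For mt-Nd4 it was 7357 ± 612 against 5650.1 ± 268 TPM (SD, n = 4), with a log2 difference of 0.38, SE 0.0797, adjusted p = 0.0255 by limma. For mt-Nd4l it was 3972 ± 366 against 3064 ± 281 TPM (SD, n = 4), with a log2 difference of 0.37, SE 0.0880, adjusted p = 0.0366 by limma. The call on mt-Nd3 held under all 22 alternatives, with an adjusted p of 0.00568 to 0.0462. That on mt-Nd4l was lost in 11 of 22, among them without any 1 of cKO 1 to 4 or of control 2 to 4 (adjusted p = 0.0523 to 0.101 by limma), and that on mt-Nd4 in 7, among them without any 1 of the 4 controls (adjusted p = 0.0512 to 0.0821) and under quantile normalization, where the difference was 0.06.

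mt-Nd3, mt-Nd4l and mt-Nd4 are neighbours, with only mt-Tr between mt-Nd3 and mt-Nd4l, and mt-Nd4l runs into mt-Nd4. Their junction is shown because both reading frames share bases on 1 bicistronic mRNA (GENCODE M21 transcripts, GRCm38, plus strand, chrM:10147-10193), with the 7 bases that belong to both rows in capitals.
mt-Nd4l to mt-Nd4: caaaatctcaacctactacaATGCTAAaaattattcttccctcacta
Reads over the shared bases can be counted for either row, and their per-library values are not independent of each other. In the rows as deposited, mt-Nd4 was above mt-Nd4l in level in all 8 libraries, with means of 6503 and 3518 TPM. With the nuclear copy described next added, mt-Nd4l was the higher in all 8, at 7712 TPM. mt-Nd4 has a partial copy in the same stretch, which has no row and was not added, so the 2 were not treated alike.

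All 3 called mRNAs also lie in a stretch that chromosome 1 carries as a nuclear copy of mitochondrial DNA. Among GENCODE M21 transcripts, 7 nuclear copies with over 99% identity lie at chr1:24611535-24616197 on the minus strand of GRCm38, a span of 4663 bases, and 5 of the 7 aligned without any mismatch. Gm28438 covers 345 of the 348 bases of mt-Nd3 with 1 mismatch. Gm10222 repeats 294 of 297 bases of mt-Nd4l exactly, and Gm28439 the first 876 of 1378 bases of mt-Nd4. The beginning of mt-Nd3 (chrM:9459-9486) and of Gm28438 (chr1:24613092-24613119, minus strand) is shown because the single mismatch, T3C counted from the first base of the mt-Nd3 row, is all that tells the aligned bases apart. It stands in capitals.
mt-Nd3: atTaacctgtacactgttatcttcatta
Gm28438: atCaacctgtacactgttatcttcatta
mt-Co2 (Gm28661), mt-Atp6 (Gm10925), mt-Co3 (Gm28437) and the end of mt-Co1 (Gm29216, 99.793% identity over 483 bases) have copies in the same stretch.

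Only 2 of these 7 copies, Gm10925 and Gm10222, have rows in the table. Gm10925 stood at 11947, 12081, 14915 and 12684 TPM in cKO libraries 1 to 4 and 11221, 10873, 10988 and 10878 TPM in control libraries 1 to 4, which is 100.5% and 101.7% of mt-Atp6 on average in cKO and control. Gm10222 stood at 4454, 4443, 5399 and 4286 TPM in cKO libraries 1 to 4 and 3953, 3808, 3707 and 3504 TPM in control libraries 1 to 4, which is 117% and 123% of mt-Nd4l. Over the 8 libraries Gm10925 was at 98.0% to 106% of mt-Atp6 and Gm10222 at 112% to 126% of mt-Nd4l, and how the authors treated reads that align to both is not given in the sources used here. Neither copy was called (log2 difference 0.23, adjusted p = 0.166 for Gm10925, and 0.31, adjusted p = 0.0609 for Gm10222, by limma), although no library overlapped between groups for either. Gm10222 was called with only rows of at least 5 TPM tested (adjusted p = 0.0411) and with array weights (0.0498). With each copy added to its twin, mt-Atp6 was at 0.23 (adjusted p = 0.205) and mt-Nd4l at 0.34 (adjusted p = 0.0580), so the call on mt-Nd4l was lost. With both copies counted as mitochondrial, the share of all TPM was 15.9% ± 1.57 in cKO and 13.4% ± 0.374 in control (SD, n = 4).

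The other 4 complex I mRNAs were not called. mt-Nd1 (chrM:2751-3707) stood at 13336, 12219, 16080.2 and 14503 TPM in cKO libraries 1 to 4 and 12932, 12205, 12405 and 11871 TPM in control libraries 1 to 4. mt-Nd2 (chrM:3914-4951) stood at 7369.6, 7494, 8651 and 7686 TPM in cKO libraries 1 to 4 and 7117, 6292, 6641 and 5970.3 TPM in control libraries 1 to 4. mt-Nd5 (chrM:11742-13565) stood at 5517, 6063, 7373 and 6186 TPM in cKO libraries 1 to 4 and 5042, 5419.8, 4827 and 4696 TPM in control libraries 1 to 4. Groups overlapped for mt-Nd1 and were apart for mt-Nd2 and mt-Nd5. Log2 differences were 0.18 for mt-Nd1, 0.26 for mt-Nd2 and 0.33 for mt-Nd5, with adjusted p = 0.313, 0.0976 and 0.0747 by limma. mt-Nd2 and mt-Nd5 also have nuclear copies of over 95% identity along part of their length, Gm13339 on chromosome 2 and Gm4076 on chromosome 13. Of the complex IV mRNAs, mt-Co1 and mt-Co2 have further copies on chromosome 2 along their whole length. These are Gm13340 (97.605% identity over 1545 bases) and Gm13341 (95.906% over 684 bases), without rows of their own.

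mt-Nd6 (chrM:13552-14070) is the only mRNA of the minus strand. It stood at 7177, 7334, 14335 and 11946 TPM in cKO libraries 1 to 4 and 9087, 9000.3, 8931 and 6735 TPM in control libraries 1 to 4. Its cKO libraries fell into a lower and a higher pair, cKO 1 and 2 against cKO 3 and 4, with 3 of the control libraries between the pairs. The mean was 10198 ± 3536 against 8438 ± 1137 TPM (SD, n = 4), so cKO libraries spread over a wider range than controls, and the log2 difference of 0.22 had a 95% interval of -0.27 to 0.71 (adjusted p = 0.598 by limma). That interval reaches beyond the change of every other mitochondrial mRNA in both directions, so a rise as large as that of mt-Nd3 and a fall both lie within it. mt-Nd6 had 28.1% G and 5.97% C, where the 12 plus-strand mRNAs had 5.88% to 16.1% G and 22.1% to 30.0% C. It overlaps the end of mt-Nd5 on the opposite strand, and whether strand was used in counting is not given in the sources used here. The ratio of mt-Nd6 to mt-Nd5 was 1.30, 1.21, 1.94 and 1.93 in cKO libraries 1 to 4 and 1.80, 1.66, 1.85 and 1.43 in control libraries 1 to 4, which overlapped.

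mt-Cytb (chrM:14145-15288), the cytochrome b of complex III and its only mitochondrially encoded subunit, stood at 12970.5, 13069, 16314 and 13972 TPM in cKO libraries 1 to 4 and 12442, 12029, 11699 and 11111 TPM in control libraries 1 to 4. No library overlapped between groups, with a log2 difference of 0.25 (adjusted p = 0.155 by limma).

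Complex IV, cytochrome c oxidase, takes its 3 core subunits from chrM, where mt-Co1 and mt-Co2 hold the redox centres. mt-Co1 (chrM:5328-6872) stood at 23200.0, 23533, 25669 and 22883 TPM in cKO libraries 1 to 4 and 20218, 20714, 20641 and 21181 TPM in control libraries 1 to 4. mt-Co2 (chrM:7013-7696) stood at 11848, 11729, 12895 and 11640.2 TPM in cKO libraries 1 to 4 and 10519, 11028, 10655 and 10770.4 TPM in control libraries 1 to 4. mt-Co3 (chrM:8607-9390) stood at 7839, 7838, 9538 and 8038 TPM in cKO libraries 1 to 4 and 6831, 6875, 6665 and 6795 TPM in control libraries 1 to 4. All 3 were without overlap between groups and none was called by limma, with 2 of the 3 at an unadjusted p under 0.05. Log2 differences were 0.20, 0.16 and 0.29, with adjusted p = 0.194, 0.224 and 0.0687, and with only rows of at least 5 TPM tested mt-Co3 was called (adjusted p = 0.0391).

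Complex V, the ATP synthase, takes subunits a (mt-Atp6) and A6L (mt-Atp8) of its membrane part from chrM. mt-Atp8 (chrM:7766-7969) stood at 9047, 8902, 9800.0 and 9258 TPM in cKO libraries 1 to 4 and 7045, 8378, 7624 and 6684 TPM in control libraries 1 to 4. mt-Atp6 (chrM:7927-8607) stood at 12192, 11659.5, 14925 and 12604 TPM in cKO libraries 1 to 4 and 11102, 10968, 10923 and 10258 TPM in control libraries 1 to 4. Neither overlapped between groups and neither was called, at 0.32 (adjusted p = 0.0591 by limma) and 0.24 (adjusted p = 0.154). The border of these rows is shown because their frames share more bases than any other pair here, 43 of them, in capitals (GENCODE M21, GRCm38, plus strand, chrM:7907-7989).
mt-Atp8 to mt-Atp6: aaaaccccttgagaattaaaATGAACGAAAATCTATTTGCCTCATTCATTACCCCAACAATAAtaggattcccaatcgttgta
Those 43 bases are a large part of the short mt-Atp8 row (204 bases), so its TPM depends on how shared reads were divided.

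By level the 13 mRNAs ran, as means over the 8 libraries, from mt-Co1 at 22255 TPM through mt-Nd1 (13194), mt-Cytb (12951), mt-Atp6 (11829), mt-Co2 (11386), mt-Nd6 (9318), mt-Atp8 (8342), mt-Co3 (7552), mt-Nd2 (7153), mt-Nd4 (6503), mt-Nd5 (5641) and mt-Nd4l (3518) to mt-Nd3 at 1482 TPM. Neighbours in this order held it in all 8 libraries for mt-Co1 over mt-Nd1, for mt-Cytb over mt-Atp6 and from mt-Nd2 down to mt-Nd3. The other neighbours changed places in 1 to 3 libraries and did not differ beyond their spread. This order holds for the mitochondrial rows as deposited. With Gm10925 and Gm10222 added to their twins, mt-Atp6 came first at 23777 TPM, above mt-Co1 in 7 of 8 libraries, and mt-Nd4l took rank 8 at 7712 TPM. The copies of mt-Co1, mt-Co2, mt-Co3, mt-Nd3 and mt-Nd4 have no rows and were not added. These ranks therefore set rows with a copy added beside rows without, and do not give an order of true levels.

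Along the plus strand, the log2 difference of the 12 mRNAs tended to be larger farther from their common start, with a Spearman's rho of 0.615 and a Pearson's r of 0.532 between order and difference, given as a description over 12 mRNAs that share libraries and neighbours. The order was not followed throughout, since mt-Cytb, the last of the 12, was at 0.25 and mt-Nd2 at 0.26. The differences also went with level. mt-Nd4, mt-Nd5, mt-Nd4l and mt-Nd3, the lowest in level as deposited, had the largest (0.33 to 0.43), and mt-Co1, the highest in level, was at 0.20. Position and level were not tested apart. By stretch, the median log2 difference was 0.01 over the 10 rows from mt-Tf to mt-Nd2, 0.24 over the 7 from mt-Tw to mt-Ts1, 0.26 over the 11 from mt-Td to mt-Nd4 and 0.25 over the 9 from mt-Th to mt-Tp. These stretches mix classes and strands: 8 of the 10 rows of the first are rRNAs or tRNAs, and its 2 mRNAs, mt-Nd1 and mt-Nd2, were at 0.18 and 0.26. The first stretch had no called row by limma (2 at an unadjusted p under 0.05) and 1 row apart between groups, and that from mt-Td to mt-Nd4 had 3 called and 8 apart. The nuclear copy on chromosome 1 covers mRNAs from the end of mt-Co1 to the beginning of mt-Nd4.

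**Figure D2:**
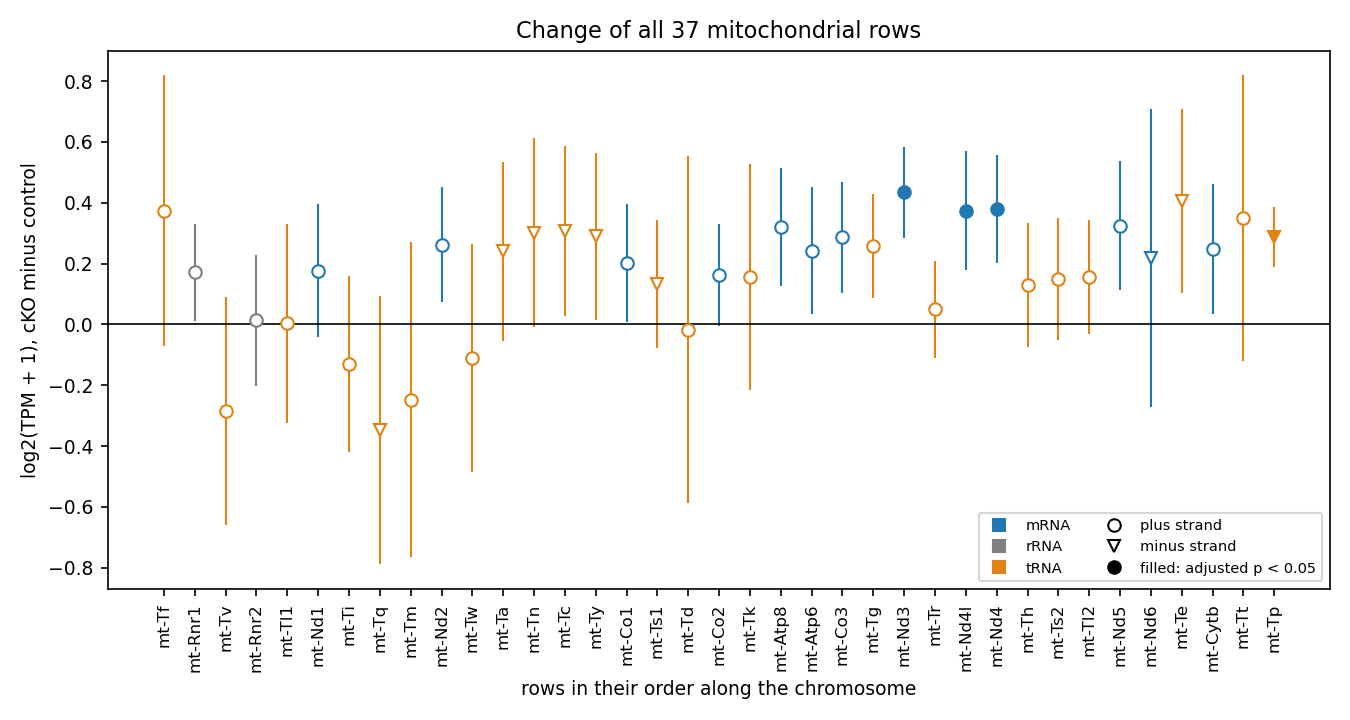
Log2 difference (cKO minus control) of all 37 mitochondrial rows in their order along the chromosome, coloured by RNA class and marked by strand, with 95% intervals and filled marks for adjusted p under 0.05. Of the 6 values below 0, 5 lie among the rows from mt-Tv to mt-Tw, the 4 filled marks lie farther right, and mt-Nd3 has the highest value at 0.43.

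Neither rRNA was called. mt-Rnr1 (chrM:70-1024), the rRNA of the small mitochondrial ribosomal subunit, stood at 448, 481, 438 and 471 TPM in cKO libraries 1 to 4 and 375, 383, 410.5 and 468 TPM in control libraries 1 to 4. mt-Rnr2 (chrM:1094-2675), that of the large subunit, stood at 668, 772, 798 and 655 TPM in cKO libraries 1 to 4 and 741, 596, 749 and 785 TPM in control libraries 1 to 4. Both overlapped between groups, at 0.17 (adjusted p = 0.180 by limma) and 0.01 (adjusted p = 0.951), and the 95% interval of mt-Rnr2 ran from -0.20 to 0.23. At 375 to 798 TPM they lay below every mRNA, in libraries for which the labels name both selection of mRNA and depletion of ribosomal RNA. Together they made up 0.838% ± 0.0794 of mitochondrial TPM in cKO and 0.946% ± 0.121 in control (SD, n = 4).

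The 22 tRNAs carry amino acids to the mitochondrial ribosome, and their levels ran from 2.14 to 4111 TPM. Rows this short are covered by fragments that reach into a neighbour, and how such fragments were assigned is not given in the sources used here. Of the 22, 16 had a log2 difference above 0, with a median of 0.15. Called was 1 (mt-Tp), or 4.55%, against 2.16% of all rows called higher. Without overlap were 2 (mt-Tp and mt-Tg), or 9.09%, against 5.33% of all rows with every cKO library above. With so few tRNAs these counts are close to those shares. The 8 minus-strand tRNAs had a median of 0.29 with 7 above 0, the 14 plus-strand tRNAs one of 0.09 with 9 above 0. Summed, the minus-strand tRNAs were at 5799, 6051, 7689 and 6562 TPM in cKO libraries 1 to 4 and 4974, 5679, 5609 and 5006 TPM in control libraries 1 to 4, without overlap. The largest parts of that sum were mt-Te (means of 3230 TPM in cKO and 2406 TPM in control) and mt-Ts1 (1845 and 1684 TPM). Each of these overlapped between groups by itself. The plus-strand tRNAs summed to 2348, 2504, 2635 and 2326 TPM in cKO and 2535, 2024, 2579.9 and 2539 TPM in control libraries 1 to 4, which overlapped. The difference between the strands was not tested.

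mt-Tp, mt-Te and mt-Tg are shown because mt-Tp was the called tRNA, mt-Te had the largest difference and mt-Tg was the other tRNA without overlap. mt-Tq is added as the tRNA with the lowest difference. Sequences are those of GENCODE M21 (GRCm38), each 5′ to 3′ on its own strand with the anticodon in capitals, at chrM:15356-15422 (minus), chrM:14071-14139 (minus), chrM:9391-9458 (plus) and chrM:3772-3842 (minus).
mt-Tp: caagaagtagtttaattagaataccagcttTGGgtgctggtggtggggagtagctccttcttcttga
mt-Te: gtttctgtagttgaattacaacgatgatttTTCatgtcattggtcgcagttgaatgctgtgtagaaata
mt-Tg: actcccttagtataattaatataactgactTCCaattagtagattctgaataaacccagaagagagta
mt-Tq: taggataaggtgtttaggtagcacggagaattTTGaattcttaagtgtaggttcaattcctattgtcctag
Their anticodons read codons for proline, glutamate, glycine and glutamine.

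mt-Tp lies at the light-strand promoter's end of the minus strand, the first gene that a minus-strand transcript meets. It stood at 222, 214, 221 and 208 TPM in cKO libraries 1 to 4 and 173, 170.4, 179.6 and 185 TPM in control libraries 1 to 4. No library overlapped and replicates were close, with a mean of 216 ± 6.45 against 177 ± 6.46 TPM (SD, n = 4), with a log2 difference of 0.29, SE 0.0445, adjusted p = 0.00772 by limma. The call held under all 22 alternatives, with an adjusted p of 0.00430 to 0.0379. mt-Te, directly downstream of mt-Nd6 in the chromosome's numbering and upstream of it in minus-strand transcription, stood at 2591, 2814, 4111 and 3402 TPM in cKO libraries 1 to 4 and 2432, 2626, 2463 and 2104 TPM in control libraries 1 to 4. It overlapped between groups by cKO 1 and control 2 and was not called at 0.41 (adjusted p = 0.106 by limma). Like mt-Nd6, it was highest in cKO 3 and then cKO 4, while mt-Tp on the same strand was level over the 4 cKO libraries.

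**Figure D3:**
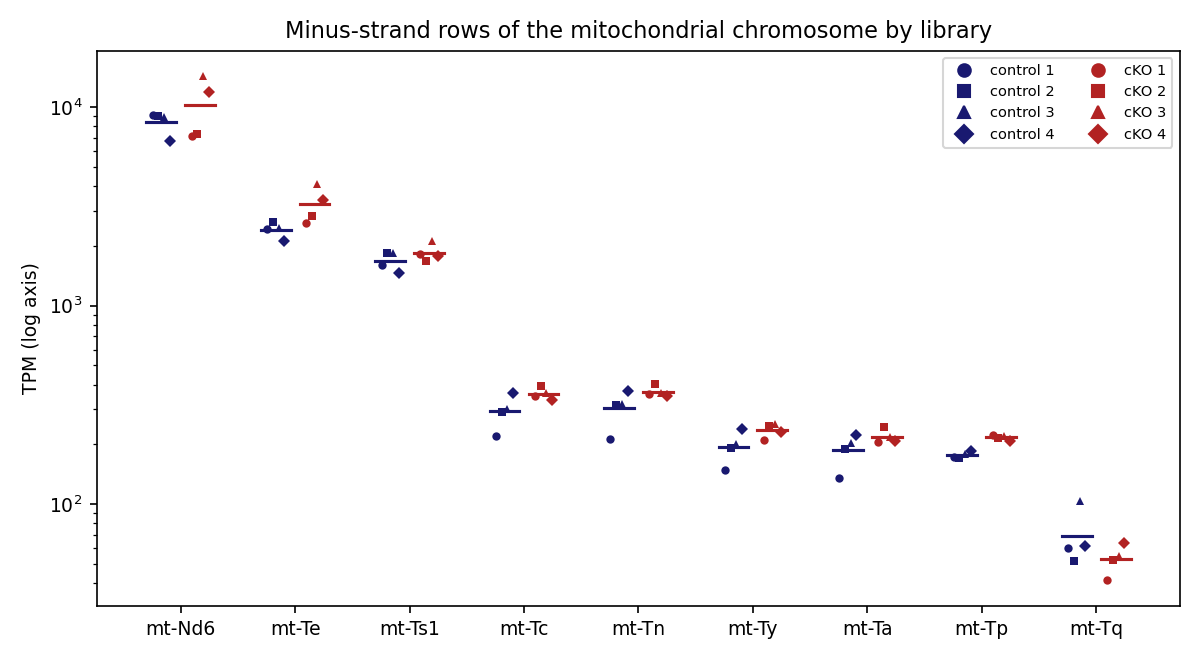
TPM (log axis) of mt-Nd6 and the 8 minus-strand tRNAs in each library, control in dark blue and cKO in red, with a bar at each group's mean. mt-Nd6 and mt-Te are highest in cKO 3 and cKO 4, and mt-Tp (208 to 222 TPM in cKO against 170.4 to 185 TPM in control) is the one row whose groups do not overlap.

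Of the remaining minus-strand tRNAs, mt-Ta, mt-Tn, mt-Tc and mt-Ty form a run around the origin of light-strand replication. mt-Ta (alanine) stood at 205, 244, 219 and 207 TPM in cKO libraries 1 to 4 and 135, 190.2, 202 and 223 TPM in control libraries 1 to 4. mt-Tn (asparagine) stood at 358, 404, 363 and 349 TPM in cKO libraries 1 to 4 and 213, 315, 319 and 369 TPM in control libraries 1 to 4. The groups of both overlapped, with control 1 the lowest and cKO 2 the highest of the 8 libraries. mt-Tc (cysteine) stood at 349.6, 392, 361 and 333 TPM in cKO libraries 1 to 4 and 220.0, 292, 301 and 361 TPM in control libraries 1 to 4. mt-Ty (tyrosine) stood at 211, 246, 254 and 230.5 TPM in cKO libraries 1 to 4 and 148, 192, 199.5 and 239 TPM in control libraries 1 to 4. Summed, the 4 tRNAs were at 1124, 1286, 1197 and 1119.5 TPM in cKO libraries 1 to 4 and 717, 989.8, 1022 and 1192 TPM in control libraries 1 to 4. Control 4 lay within the cKO range and control 1 lowest, so the groups overlapped, and none of the 4 was called by limma, at log2 differences of 0.24, 0.30, 0.31 and 0.29, with mt-Tc and mt-Ty at an unadjusted p under 0.05. mt-Ts1 (serine), which overlaps the end of mt-Co1 on the opposite strand, stood at 1822, 1685, 2105 and 1768 TPM in cKO libraries 1 to 4 and 1592, 1841, 1840.5 and 1464 TPM in control libraries 1 to 4, which overlapped at 0.13 (adjusted p = 0.436). mt-Tq (glutamine) stood at 41.2, 52.0, 54.4 and 63.8 TPM in cKO libraries 1 to 4 and 59.9, 51.7, 104 and 61.5 TPM in control libraries 1 to 4. Control 3 stood apart there, and mt-Tq overlapped between groups at -0.35 (adjusted p = 0.327).

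On the plus strand, mt-Tg (glycine), which ends where mt-Nd3 begins, stood at 187, 158, 160.3 and 165 TPM in cKO libraries 1 to 4 and 127, 146, 132 and 156 TPM in control libraries 1 to 4. The lowest cKO library lay just above the highest control library, at 0.26 (adjusted p = 0.0755 by limma). mt-Tr (arginine), between mt-Nd3 and mt-Nd4l, stood at 105, 105, 121 and 117 TPM in cKO libraries 1 to 4 and 114, 103, 97.9 and 118 TPM in control libraries 1 to 4. It overlapped at 0.05 (adjusted p = 0.717), although both of the mRNAs beside it were called. mt-Th (histidine) stood at 264, 269, 253 and 303 TPM in cKO libraries 1 to 4 and 219, 249, 235 and 297 TPM in control libraries 1 to 4. mt-Ts2 (serine) stood at 208, 222, 209 and 237 TPM in cKO libraries 1 to 4 and 177, 207, 177 and 233 TPM in control libraries 1 to 4. mt-Tl2 (leucine) stood at 185, 193, 203 and 204 TPM in cKO libraries 1 to 4 and 166, 183, 153 and 207 TPM in control libraries 1 to 4. These 3 stand in a row after mt-Nd4, had log2 differences of 0.13, 0.15 and 0.16, and overlapped only through control 4, which was within or above the cKO range.

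mt-Tl1 (leucine), which follows mt-Rnr2, was the most abundant plus-strand tRNA. It stood at 1093, 1184, 1312 and 939 TPM in cKO libraries 1 to 4 and 1329, 825, 1234 and 1167 TPM in control libraries 1 to 4. Its difference was 0.0034 with a 95% interval of -0.32 to 0.33. mt-Tm (methionine) stood at 159, 184, 177 and 186 TPM in cKO libraries 1 to 4 and 218, 157, 369 and 152 TPM in control libraries 1 to 4. mt-Ti (isoleucine) stood at 30.7, 30.6, 33.0 and 36.8 TPM in cKO libraries 1 to 4 and 27.6, 35.1, 36.9 and 46.3 TPM in control libraries 1 to 4. mt-Tw (tryptophan) stood at 68.1, 99.8, 113 and 79.9 TPM in cKO libraries 1 to 4 and 108, 71.6, 99.1 and 109 TPM in control libraries 1 to 4. All 3 overlapped with log2 differences of -0.25, -0.13 and -0.11, and mt-Tm, like its neighbour mt-Tq, was highest in control 3. Without control 3, mt-Tm was at 0.02, and without cKO 1, mt-Tw was at 0.01.

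The least abundant tRNAs were at a few TPM, where the pseudocount of 1 TPM shrinks differences. mt-Tf (phenylalanine), the first gene of the plus strand, stood at 4.94, 4.71, 5.56 and 8.11 TPM in cKO libraries 1 to 4 and 4.32, 5.09, 5.28 and 2.53 TPM in control libraries 1 to 4. mt-Tv (valine), between the rRNAs, stood at 4.53, 2.14, 4.22 and 2.93 TPM in cKO libraries 1 to 4 and 3.90, 3.94, 4.68 and 4.71 TPM in control libraries 1 to 4. mt-Td (aspartate) stood at 7.82, 9.20, 6.68 and 9.68 TPM in cKO libraries 1 to 4 and 8.98, 14.1, 8.59 and 4.37 TPM in control libraries 1 to 4. All 3 overlapped between groups, at 0.37, -0.29 and -0.02. mt-Tk (lysine) stood at 15.6, 22.1, 19.4 and 21.0 TPM in cKO libraries 1 to 4 and 13.5, 16.1, 16.2 and 25.1 TPM in control libraries 1 to 4. mt-Tt (threonine) stood at 15.1, 19.6, 17.3 and 16.1 TPM in cKO libraries 1 to 4 and 18.7, 7.83, 12.1 and 16.2 TPM in control libraries 1 to 4. Both overlapped too, at 0.16 and 0.35, and none of the 5 was called by limma or reached an unadjusted p under 0.05.

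As shares within the mitochondrial chromosome, the groups overlapped in each class. mRNAs made up 92.8% ± 0.173 of mitochondrial TPM in cKO and 92.6% ± 0.367 in control, and tRNAs 6.33% ± 0.127 and 6.48% ± 0.287 (SD, n = 4). The minus strand took 9.82%, 10.1%, 13.6% and 13.1% of mitochondrial TPM in cKO libraries 1 to 4 and 11.6%, 12.0%, 12.1% and 10.3% in control libraries 1 to 4. The class shares and the strand share overlapped, and the strand share, like mt-Nd6, was higher in cKO 3 and 4 than in cKO 1 and 2. Without mt-Nd6 the minus strand held 4.94% ± 0.255 in cKO and 4.79% ± 0.302 in control. Among mRNA TPM, complex I subunits took 38.9% ± 1.81 in cKO and 38.2% ± 1.18 in control, complex IV subunits 33.6% ± 1.63 and 34.6% ± 1.47, and complex V subunits 16.8% ± 0.350 and 16.5% ± 0.507 (SD, n = 4), all overlapping.

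**Figure D4:**
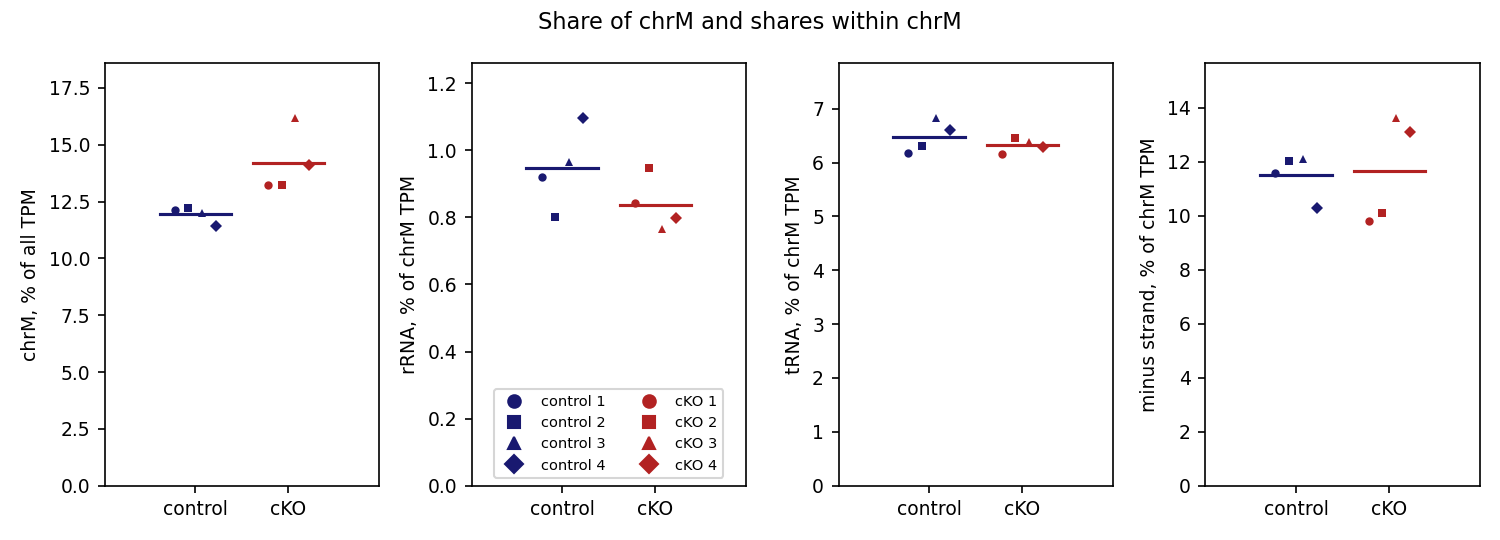
Percent of all TPM that fell on the mitochondrial chromosome (left) and percent of mitochondrial TPM that fell on rRNAs, tRNAs and the minus strand (other panels), 1 point per library with a bar at the group mean. The left panel separates the groups (13.2% to 16.2% against 11.4% to 12.2%), and the other 3 overlap.

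To compare rows with the mitochondrial mRNAs as a whole, each library was scaled to 1 common sum of the 13 mRNAs and the fit repeated over all 15541 rows. This scaling moved the median of all rows from -0.02 to -0.25, where 38.2% of rows were called lower and 0.746% higher, so a mitochondrial row at 0 lay above the median of all rows. No mitochondrial row was called higher by limma and 2 were called lower, with 5 at an unadjusted p under 0.05, all tRNAs. These were mt-Tv at -0.48 (adjusted p = 0.0303) and mt-Tq at -0.59 (adjusted p = 0.0230), whose groups overlapped. Both calls were lost without cKO 3 (adjusted p = 0.0521 for mt-Tv and 0.0740 for mt-Tq) and without control 3 (0.0723 and 0.0568), and that on mt-Tv also without cKO 2, cKO 4 or control 4 (0.0689 to 0.0817). mt-Nd4 alone was without overlap on this scale (0.573% of all rows lay wholly above and 39.8% wholly below), at 0.13 (adjusted p = 0.287), with its share of mRNA TPM at 5.68%, 5.80%, 5.51% and 5.39% in cKO libraries 1 to 4 and 5.17%, 5.24%, 4.92% and 5.12% in control libraries 1 to 4, or 5.59% ± 0.181 against 5.11% ± 0.137 (SD, n = 4). mt-Nd3 was at 0.19 (adjusted p = 0.149), mt-Nd4l at 0.13 (adjusted p = 0.302) and mt-Tp at 0.04 (adjusted p = 0.728). The rRNAs were at -0.08 (adjusted p = 0.604) for mt-Rnr1 and -0.23 (adjusted p = 0.115) for mt-Rnr2, the latter called lower only without control 2 (-0.33, adjusted p = 0.0445). The SE of this fit is drawn towards the spread of all rows, most of them nuclear, and can exceed the scatter of a mitochondrial share: it was 0.0998 for mt-Nd4 and 0.104 for mt-Cytb, whose share was 10.7% ± 0.130 in cKO and 10.7% ± 0.232 in control. A missing call on this scale therefore does not show that the mRNAs changed alike.

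Nuclear genes that make and handle mitochondrial RNA are read against the 6.4% of all rows called. Of 11 tested genes of mtDNA transcription 1 was called higher and none lower, with a median of -0.02. Mterf3, a mitochondrial transcription factor of the MTERF family known to restrain transcription, was at 21.4 ± 0.646 against 17.5 ± 0.952 TPM (SD, n = 4), a log2 difference of 0.28 (adjusted p = 0.0219 by limma). Tfam, which packages mtDNA and opens its promoters, was at 23.6 ± 1.07 against 25.2 ± 1.21 TPM (-0.09, adjusted p = 0.370), and Polrmt, the mitochondrial RNA polymerase, at 18.2 ± 0.812 against 19.4 ± 1.47 TPM (-0.09, adjusted p = 0.461). Both overlapped between groups. The call on Mterf3 was lost without cKO 1, cKO 3, control 1 or control 3 (adjusted p = 0.0545 to 0.0592).

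Of 30 tested genes of mitochondrial RNA processing and stability 2 were called lower and none higher, with a median of -0.08. Above 0 were 7 of the 30, against 44.2% of all rows. Their summed level was 1178 ± 34.7 against 1248 ± 12.9 TPM (SD, n = 4), without overlap, and was not tested. After rescaling to nuclear rows their median was -0.04, against 0.01 over all rows, and the sum was not rescaled. Grsf1, an RNA-binding protein of mitochondrial RNA granules, was at 91.2 ± 7.77 against 114 ± 5.32 TPM (-0.32, adjusted p = 0.0215 by limma). Pus1, which makes pseudouridine in tRNAs, was at 33.4 ± 3.46 against 40.3 ± 1.14 TPM (-0.27, adjusted p = 0.0498). The call on Grsf1 was lost without cKO 1, cKO 3, control 1, control 2 or control 3 (adjusted p = 0.0510 to 0.0615), and that on Pus1 without any 1 library but cKO 4 (0.0775 to 0.127) and after rescaling to nuclear rows (0.0776).

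Of 17 tested genes of mtDNA replication and nucleotide supply none was called by limma (4 at an unadjusted p under 0.05), with a median of -0.06. Rrm2b, the small ribonucleotide reductase subunit that supplies mitochondria outside S phase, was at 12.3 ± 0.608 against 12.4 ± 0.860 TPM (-0.01, adjusted p = 0.935), and its direction turned after rescaling to nuclear rows (0.02). Of 8 tested regulators of mitochondrial biogenesis 1 was called higher and 3 were above 0, with a median of -0.03. Their summed level was 228 ± 5.02 against 235 ± 2.65 TPM (SD, n = 4), without overlap, and was not tested. After rescaling to nuclear rows their median turned to 0.0025, against 0.01 over all rows, and the sum was not rescaled. The called regulator was Nrip1, a corepressor of oxidative genes, at 8.33 ± 0.187 against 6.73 ± 0.554 TPM (0.27, adjusted p = 0.0476 by limma). That call was lost without any 1 of the 8 libraries (0.0703 to 0.116).

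The nuclear subunits of the respiratory complexes are set beside the median of all rows (-0.02) and the 2.16% of all rows called higher. Of 37 tested nuclear subunits of complex I 1 was called higher, with a median of 0.00, against 3 of 7 and 0.33 for the mitochondrial ones. It was Ndufa1, at 130.0 ± 5.91 against 109 ± 5.27 TPM (0.26, adjusted p = 0.0222 by limma), a call lost without cKO 1, cKO 3, control 3 or control 4 (0.0509 to 0.0637). Of 15 tested nuclear subunits of complex IV 2 were called higher, with a median of 0.09 and 11 above 0. Cox6b2, known as the testis form of a peripheral subunit, was at 63.4 ± 11.3 against 17.4 ± 1.91 TPM (1.80, adjusted p = 5.81e-05), and Cox7a1, the form typical of heart and skeletal muscle, at 127 ± 3.97 against 113 ± 2.19 TPM (0.17, adjusted p = 0.0414), a call lost without any 1 of the 8 libraries (0.0628 to 0.102). None of the 4 subunits of complex II, which has no mitochondrially encoded part, none of 9 of complex III and none of 15 of complex V was called by limma, with 3, 2 and 4 at an unadjusted p under 0.05 and medians of -0.13, 0.02 and -0.07. The difference between mitochondrial and nuclear subunits was not tested.

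**Figure D5:**
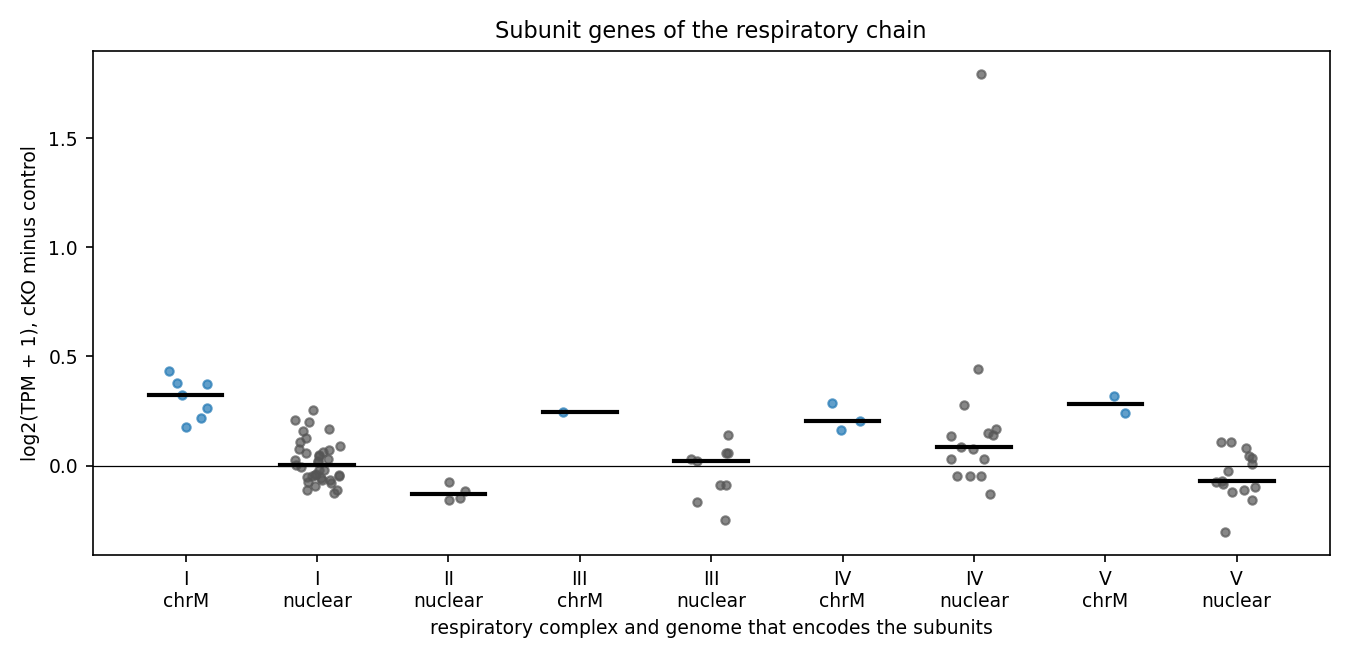
Log2 difference (cKO minus control) of each subunit gene of respiratory complexes I to V, mitochondrially encoded in blue and nuclear in grey, with a bar at each group's median. The blue points all lie above 0 (0.16 to 0.43). The grey ones lie on both sides of it, except that all 4 of complex II lie below. Cox6b2 at 1.80 and Cox8b at 0.44 are the grey points above every blue one.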

How the data were processed

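RNA-seq values of 4 cKO and 4 control libraries were read from 1 deposited table of TPM. Per the submitters' processing notes, FastQC, Trim Galore 0.6.7, HISAT2 2.2.1, StringTie 2.2.1, featureCounts, DESeq2 and the build GRCm38 were used by the authors, with no role or order given; the handling of strand and of reads with several alignments is not given in the sources used here. Groups came from the labels' titles. Each column summed to the same total TPM, so depth is unknown.

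Rows were mapped by position to GENCODE M21 transcripts (GRCm38), which also gave all sequences. log2(TPM + 1) of 15541 rows with a mean of at least 1 TPM was fitted with limma 3.58.1 (R 4.3.3; moderated variance with trend, no covariate, Benjamini-Hochberg adjustment over all rows), and again after scaling to the chrM mRNA sum. The fit was tested on simulated data. P-values set each difference against the spread between these samples, with each row's variance drawn towards a trend over all rows. Nuclear copies were found with blastn 2.17.0 (at least 95% identity over 200 bases). Alternatives changed the pseudocount, the filter, the scaling, the variance model, the replicate block or the libraries, and 1, adding nuclear copies to their mitochondrial twins, was chosen after seeing the data. Members and gene lists were chosen with earlier results of these data known. By rule, all chrM rows are given in every library, and of each list the called genes (at most 3), with Tfam, Polrmt, Rrm2b and Rps19bp1.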

Additional observations from a re-analysis of the deposited data

Results flagged for a closer look

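In 6 of 118 groups of 4 libraries tested (per gene and share), 1 library stood far from the other 3 by Dixon's test at the 95% level, where chance alone gives about 1 in 20. Of these, 4 were in cKO 3. There mt-Co2 was at 12900 TPM against 11640 to 11850 TPM in the other cKO libraries, mt-Co3 at 9538 TPM against 7838 to 8038 TPM, mt-Nd4 at 8271 TPM against 6981 to 7106 TPM, and Gm10222, the nuclear copy of mt-Nd4l, at 5399 TPM against 4286 to 4454 TPM. Without cKO 3, mt-Nd4 kept its call. In control 4, mt-Nd6 was at 6735 TPM against 8931 to 9087 TPM in the other controls. In control 3, Pus1 was at 41.9 TPM against 39.4 to 39.8 TPM.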

How the results depend on the processing

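The calls on mt-Nd3 and mt-Tp held under all 22 alternatives, and no mitochondrial row was called lower under any of them. Mitochondrial rows called higher (4) fell to 2 with no filter on low values, to 2 with the replicate block and to 2 to 3 when 1 library was left out. Mitochondrial mRNAs called higher (3) numbered 1 with no filter, 5 at a mean of at least 5 TPM, 1 with the block and 1 to 2 with 1 library left out. Over all rows, the 994 calls became 347 with no filter, 609 without the trend, 420 with the block and 388 to 936 with 1 library left out. Relative to the chrM mRNA total, rows called lower (2) numbered 5 by median ratio, 4 at a mean of at least 5 TPM, 0 with no filter, 5 with the block and 0 to 6 with 1 library left out. The median log2 difference of the mRNAs (0.26) was 0.0741 under quantile normalization. The cause of these changes was not tested. In a check for pairing between cKO and control libraries, same-numbered ones had correlations of -0.0107, 0.0674, 0.0576 and -0.0891. Those of the other pairs ran from -0.128 to 0.122, so the replicate numbers gave no sign of pairing. These values are not correlations of the levels themselves.

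Within a fit, signs turned only for rows that this fit did not call. mt-Tp, called in the first fit, turned only relative to the mRNA total, where it was not called. mt-Rnr2 was at -0.0023 and mt-Tl1 at -0.0210 with array weights, and -0.0733 to 0.0595 and -0.144 to 0.0895 with 1 library left out. So left out, mt-Tm was at -0.400 to 0.0237, mt-Tw at -0.248 to 0.0131 and mt-Td at -0.285 to 0.211. mt-Td was at 0.0174 after nuclear rescaling, 0.0159 without chrM and globin rows and 0.0097 with array weights. mt-Co2 was at -0.10 under quantile normalization. Relative to the mRNA total, mt-Rnr1 was at -0.131 to 0.0124 and mt-Tp at -0.00113 to 0.0954 with 1 library left out. Rrm2b was at 0.0043 by median ratio, 0.0226 after nuclear rescaling, 0.0208 without chrM and globin rows, 0.0133 with array weights and -0.0579 to 0.0138 with 1 library left out.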
